A study of Mus musculus with 4 samples.

Results

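The genes described here encode the sensors with which a mammalian cell detects foreign or misplaced RNA and DNA, together with the adaptors and the kinase that pass the signal on. They were Ddx58 (RIG-I), Ifih1 (MDA5), Dhx58 (LGP2), Tlr3, Mb21d1 (cGAS), Ifi204, Zbp1, Mavs, Tmem173 (STING) and Tbk1, that is, 7 sensors, 2 adaptors and 1 kinase. They were chosen by symbol, with earlier results of these data known, and all 10 were found among the 38713 genes of the deposited expression table. RNA was sequenced from 4 lines of mouse mammary tumor cells, with 1 tumor behind each line and 1 library made from it. The JNK_WT lines (genotype p53-/-, replicates 1 and 2) came from Wap-Cre mice with floxed Trp53. The JNK_KO lines (genotype p53-/- JNK-/-, replicates 1 and 3) came from Wap-Cre mice with floxed Trp53, Mapk8 and Mapk9, where Mapk8 and Mapk9 encode the kinases JNK1 and JNK2. The strain was C57BL/6, the mice had been bred, and p53 deletion and Wap-Cre were shared by both groups. The Wap promoter drives Cre in luminal mammary epithelium during late pregnancy and lactation, so each line descends from cells that had been recombined in the animal and had then formed a tumor. The dispersed tumor cells were grown first on collagen I and then on plastic, no treatment was given, and RNA was taken once a line was established. The age of the mice at tumor collection was not used here.

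RIG-I and MDA5 bind viral or misplaced RNA in the cytosol and signal through the mitochondrial adaptor MAVS, while LGP2 lacks the signalling domain and modulates both. cGAS binds cytosolic DNA and makes the messenger cGAMP, which activates STING, Tlr3 detects RNA inside endosomes, and MAVS and STING both lead to the kinase TBK1, which phosphorylates the transcription factor IRF3 to switch on type I interferon. Many of the sensors are themselves interferon-inducible genes, and in epithelium the pathway is known for antiviral defence and for responses to damaged DNA.

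The response element through which interferon acts on such genes contains a repeated GAAA. The promoter windows given by RefSeq on GRCm38.p6, which run from 250 bases before to 50 bases after a gene's start, were searched on both strands for its core, GAAANNGAAA. A window was listed for 6 of the 10 genes (Ddx58, Ifih1, Tlr3, Mb21d1, Mavs and Tbk1). The core was found in 2 of these 6, Ddx58 and Ifih1, and in 1131 of all 32851 windows (3.44%). It was also found in 5 of 10 windows of early interferon target genes, namely Cxcl10, Ifit1, Ifit3, Isg15 and Rsad2. The window of Irf7, searched as well, held no core. The Tlr3 window, chr8:45410331-45410630, lay wholly within the gene as GENCODE places it, with its outer end at 45411080. Bases around that outer end were therefore not searched. The element of the interferon gamma pathway, searched as TTCNNNGAA, was in 0 of the 6 sensor and adaptor windows, in 1 of the 10 target windows (Ifit2) and in 8.30% of all windows; it was in none of the windows shown here, so the motifs do not overlap there. Bases around the core are printed in the direction of the gene for the sensors that hold it and for 3 of the target genes for comparison, with the core in capitals. In Ddx58 and Ifit1 the core lies on the opposite strand and therefore reads as its reverse complement.
Ddx58, chr4:40239804-40239833, minus strand, core from base 3 of the transcript: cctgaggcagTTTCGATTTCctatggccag
Ifih1, chr2:62646206-62646235, minus strand, core from base 33 of the transcript: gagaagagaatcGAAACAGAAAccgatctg
Cxcl10, chr5:92349083-92349112, minus strand, core at -213: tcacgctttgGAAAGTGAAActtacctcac
Isg15, chr4:156200877-156200906, minus strand, 1 of 3 matches, core at -78: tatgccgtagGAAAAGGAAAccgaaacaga
Ifit1, chr19:34640775-34640804, plus strand, 1 of 2 matches, core at -104: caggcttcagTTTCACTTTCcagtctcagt
In both sensors the core lay within the first transcribed bases, and in the 3 targets it lay upstream of the start. A match of letters describes the window and is not a measurement of binding.

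Expression was given as FPKM, fragments mapped to a gene per kilobase of its length and per unit number of mapped fragments in the library, so levels may be compared between genes. No read totals were given with the values; from the steps of low values, depth relative to JNK_KO 1 was 1.07 in JNK_WT 1, 1.27 in JNK_WT 2 and 1.41 in JNK_KO 3. Upper quartiles of the 4 libraries lay between 33.2 and 34.3 FPKM over the tested genes. Mapk8 was at 23.9 and 19.1 FPKM in JNK_WT 1 and 2 and at 4.30 and 4.27 FPKM in JNK_KO 1 and 3 (log2 difference -2.08, limma adjusted p = 0.191). Mapk9 was at 29.7 and 24.3 against 12.6 and 8.66 FPKM (log2 difference -1.28, limma adjusted p = 0.429). Trp53, which was targeted in all lines, was between 1.55 and 5.72 FPKM. Of 7 luminal epithelial markers, 6 or 7 reached 1 FPKM in each line, and their sum was lower in the JNK_KO lines, at 3061 and 2086 FPKM in JNK_WT 1 and 2 and at 926.6 and 1796 FPKM in JNK_KO 1 and 3. Krt8 and Epcam lay lower in both JNK_KO lines than in either JNK_WT line (log2 differences of -1.0 and -1.20), Gata3 lay higher (1.48 and 35.1 FPKM on average, log2 difference 3.87), and the other luminal markers overlapped. Of 11 leukocyte markers, 9 were under 1 FPKM in all lines and Nkg7 was listed at 0 throughout; the sum of the 11 was 22.2 and 3.68 FPKM in JNK_WT 1 and 2 and 3.67 and 9.80 in JNK_KO 1 and 3. The 3 plasmacytoid dendritic markers summed to 123.3 and 39.0 FPKM in JNK_WT 1 and 2 and to 412.9 and 301.2 FPKM in JNK_KO 1 and 3. Siglech was at or under 0.0156 FPKM in all lines, Tcf4 was at 9.31 to 21.2 FPKM with overlapping groups, and the sum followed Bst2, itself an interferon-inducible gene, at 113.9 and 17.9 against 399.1 and 288.1 FPKM. The 3 endothelial markers were all under 1 FPKM. The 5 basal markers differed between lines of the same genotype, with sums of 14.9 and 529.8 FPKM in JNK_WT and 29.7 and 348.7 FPKM in JNK_KO. The 6 fibroblast markers summed to 11.7 and 1.54 FPKM in JNK_WT 1 and 2 and to 106.2 and 175.0 FPKM in JNK_KO 1 and 3. The JNK_KO sums came almost wholly from Dcn and Pdgfra, and the JNK_WT 1 sum mostly from Col1a2. Col1a2 was at 10.3 and 0.374 FPKM in JNK_WT 1 and 2 and at 0.698 and 2.56 FPKM in JNK_KO 1 and 3, with overlapping groups. Col1a1 was under 1 FPKM in every line. The fibroblast and plasmacytoid dendritic sums moved with genotype in the same direction as the sensor genes below, and the luminal sum in the opposite direction; their part in the difference of the sensor genes was not tested. Fewer cells of a type and less RNA per cell cannot be told apart in such libraries. With 1 library per line, p-values measure the spread between lines, technical spread included.

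All sensor genes but Tlr3 lay higher in both JNK_KO lines than in either JNK_WT line, while the genotypes overlapped for both adaptors and met for the kinase. All 10 genes were at 1 FPKM or more in all 4 libraries, and all were among the 12998 genes tested with limma on log2(FPKM + 1). None was called at an adjusted p under 0.05 with an absolute log2 difference over 0.75 (0 of 10, beside 0% of all tested genes). An unadjusted p under 0.05 with a higher level in JNK_KO was reached by 4 of the 10 genes (Ddx58, Ifih1, Ifi204 and Zbp1), beside 4.75% of all tested genes. Over all genes 992 had an unadjusted p under 0.05 in either direction. Both JNK_KO lines lay above both JNK_WT lines for 7 of the 10 genes, beside 18.3% of all tested genes, and for the other 3 the lines overlapped. A log2 difference over 0.75 was found for 5 genes, all higher in JNK_KO, beside 9.25% of all tested genes. The median log2 difference, JNK_KO minus JNK_WT, was 1.14 over the 10 genes and 0.01 over all tested genes. It was 1.57 over the 7 sensors and 0.21 over the 2 adaptors and the kinase. The median without JNK_WT 2 was 0.76.

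**Figure D1:**
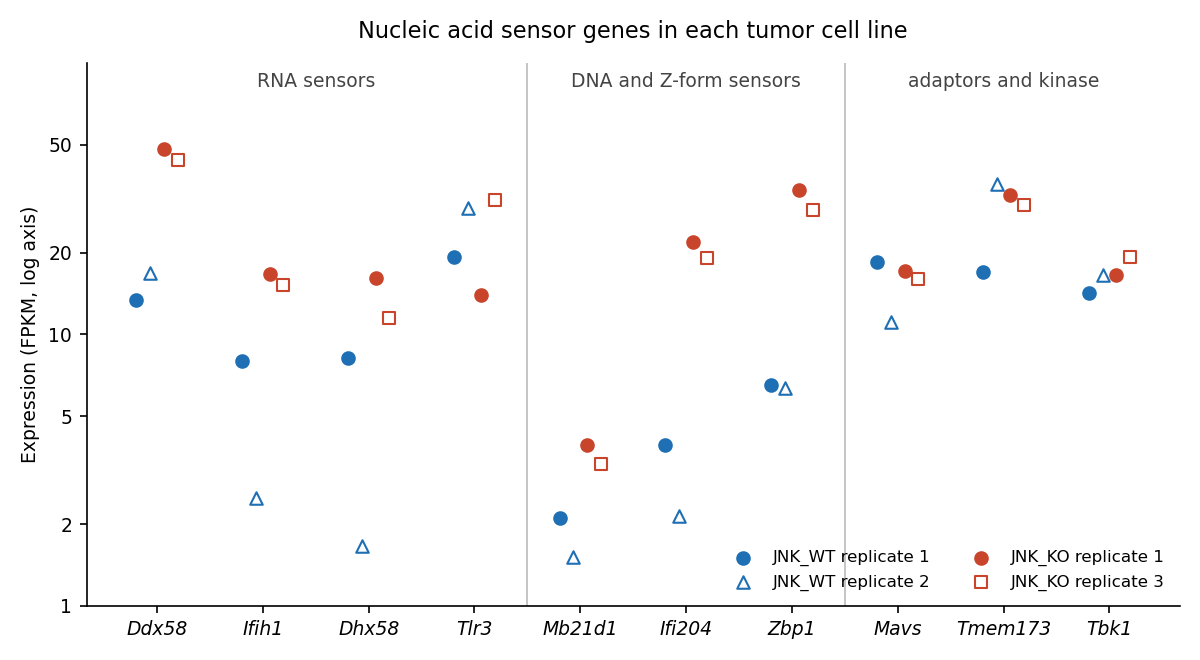
Expression of the 10 genes in FPKM on a log axis, with 1 point per cell line, blue for JNK_WT and red for JNK_KO, grouped as RNA sensors, DNA and Z-form sensors, and adaptors and kinase. Both red points lie above both blue points for Ddx58, Ifih1, Dhx58, Mb21d1, Ifi204 and Zbp1, the points of Tlr3, Mavs and Tmem173 overlap, and those of Tbk1 nearly touch (16.6 FPKM in JNK_WT 2 and in JNK_KO 1).

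**Figure D2:**
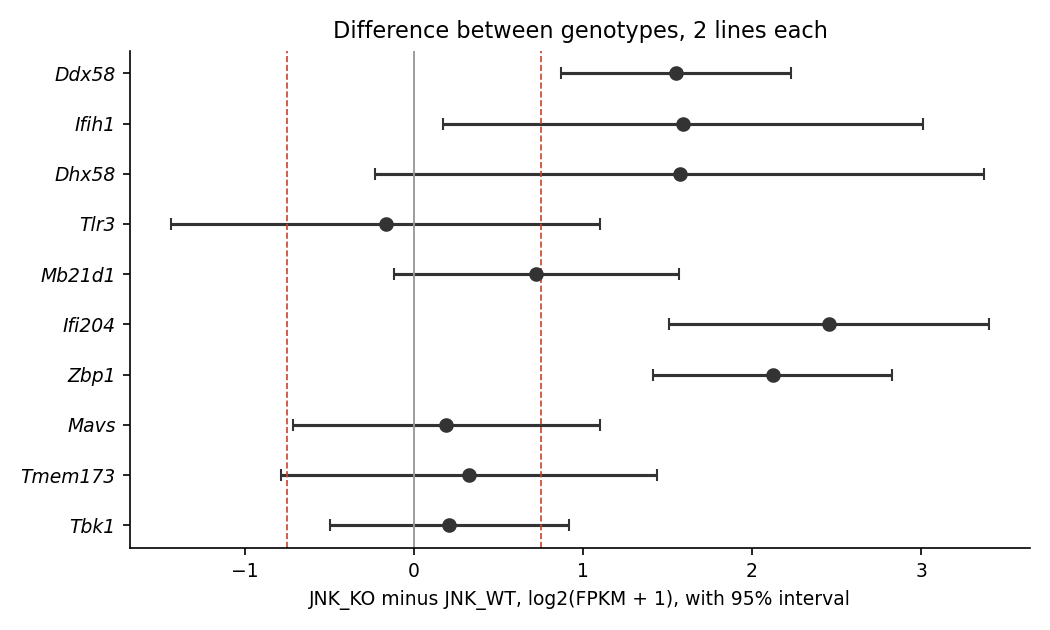
Difference between genotypes for each gene on the log2(FPKM + 1) scale, JNK_KO minus JNK_WT, with 95% intervals from the limma fit (2 lines each); dashed lines mark the log2 difference of 0.75 on either side of 0. The intervals of Ddx58, Ifi204 and Zbp1 lie wholly above 0.75, that of Ifih1 lies above 0, and the other 6 include 0. Each interval is for a single gene, without adjustment over the genes tested, and none of the genes shown was called.

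The cytosolic RNA sensors were each about 3-fold higher on average in JNK_KO cells, with very different spreads between the JNK_WT lines. Ddx58 (chr4:40203773-40239828, minus strand), whose product RIG-I recognises uncapped RNA ends, was at 13.5 and 16.9 FPKM in JNK_WT 1 and 2 and at 48.2 and 44.1 FPKM in JNK_KO 1 and 3. The groups did not overlap, and the lower JNK_KO line was 2.61 times the higher JNK_WT line. Means were 15.2 ± 2.44 and 46.2 ± 2.92 FPKM (SD, n = 2 each), a ratio of 3.04 and a log2 difference of 1.55 (SE 0.25, 95% interval 0.87 to 2.23) with a limma adjusted p of 0.250. The position of Ddx58 among tested genes ordered by level went from the 51.2 and 56.3 percentiles in the JNK_WT lines to 82.7 and 80.9 in the JNK_KO lines. Leaving out any single line kept its log2 difference between 1.40 and 1.71.

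Ifih1 (chr2:62595798-62646255, minus strand), which encodes MDA5, the sensor of long duplex RNA, was at 8.0 and 2.50 FPKM in JNK_WT 1 and 2 and at 16.7 and 15.2 FPKM in JNK_KO 1 and 3. The JNK_KO lines were close to each other and above both JNK_WT lines, which were 3.20-fold apart. Means were 5.25 ± 3.89 and 15.9 ± 1.09 FPKM (SD, n = 2 each), with a log2 difference of 1.59 (SE 0.53, 95% interval 0.17 to 3.01) and a limma adjusted p of 0.581. Dhx58 (chr11:100694884-100704271, minus strand), which encodes LGP2, was at 8.18 and 1.66 FPKM in JNK_WT 1 and 2 and at 16.2 and 11.5 FPKM in JNK_KO 1 and 3. It was the member with the widest gap between lines of 1 genotype, 4.94-fold in JNK_WT, and the groups still did not overlap. Its log2 difference was 1.57 (SE 0.68, 95% interval -0.23 to 3.37), with a limma adjusted p of 0.719. Without JNK_WT 2 the log2 difference was 0.91 for Ifih1 and 0.68 for Dhx58. The exons of Dhx58 overlap an antisense gene, Dhx58os, and strand was not stated for the libraries, so reads of the pair cannot be told apart.

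The 3 RIG-I-like receptor genes together summed to 29.6 and 21.1 FPKM in JNK_WT 1 and 2 and to 81.2 and 70.8 FPKM in JNK_KO 1 and 3. Ddx58 held 45.4% of that sum in JNK_WT 1, 80.3% in JNK_WT 2, 59.4% in JNK_KO 1 and 62.3% in JNK_KO 3. The share of Ddx58 in the JNK_KO lines thus lay between those of the JNK_WT lines, so the summed level separated the genotypes and the makeup of the sum did not. In JNK_WT 1, Ddx58 was 0.93 below its own mean over the 4 libraries on the log2(FPKM + 1) scale while Ifih1 was 0.11 below and Dhx58 0.11 above theirs; in JNK_WT 2 the 3 genes were 0.62, 1.48 and 1.68 below.

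**Figure D3:**
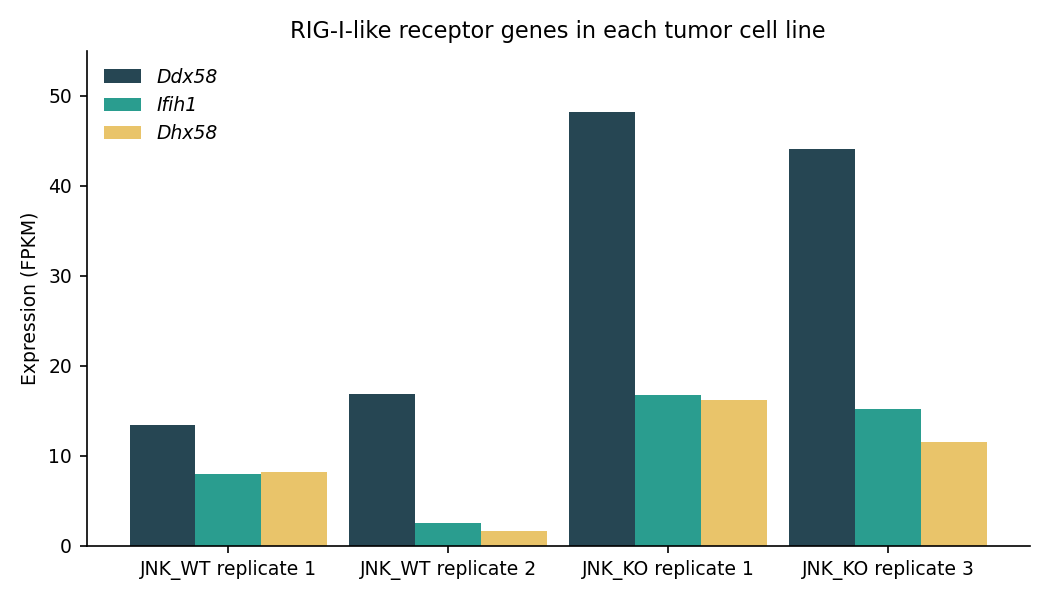
FPKM of Ddx58, Ifih1 and Dhx58 as bars from 0 in each of the 4 cell lines, 1 library per line. Ddx58 is the tallest bar in every line, all 3 genes are highest in the JNK_KO lines, and Ifih1 and Dhx58 are lowest in JNK_WT 2 (2.50 and 1.66 FPKM).

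The endosomal RNA sensor did not follow the cytosolic ones. Tlr3 (chr8:45395665-45411080, minus strand) was at 19.3 and 29.1 FPKM in JNK_WT 1 and 2 and at 14.03 and 31.3 FPKM in JNK_KO 1 and 3. The JNK_KO lines held both the lowest and the highest value and were 2.23-fold apart, so the groups overlapped. The log2 difference was -0.17 (SE 0.48, 95% interval -1.44 to 1.10), with a limma adjusted p of 0.999, and this interval does not exclude a 2-fold difference either way. Its sign turned without JNK_WT 2 and without JNK_KO 1. Tlr3 exons overlap the antisense gene Gm45542, with the same limit as for Dhx58.

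The sensors of DNA and of Z-form nucleic acid included the members with the largest differences. Ifi204 (chr1:173747293-173766943, minus strand), a HIN-200 protein that binds DNA and acts upstream of STING, was at 3.91 and 2.14 FPKM in JNK_WT 1 and 2 and at 22.0 and 19.2 FPKM in JNK_KO 1 and 3. The lower JNK_KO line was 4.90 times the higher JNK_WT line. Means were 3.03 ± 1.26 and 20.6 ± 1.96 FPKM (SD, n = 2 each), a ratio of 6.80 and a log2 difference of 2.46 (SE 0.36, 95% interval 1.51 to 3.40) with a limma adjusted p of 0.208. Ifi204 belongs to a cluster of near-identical genes that can trade short reads in the authors' estimate, so its own level is uncertain. Summed over Ifi203, Ifi204, Ifi205 and Mndal, the level was 7.21 and 4.72 FPKM in JNK_WT 1 and 2 and 79.3 and 48.3 FPKM in JNK_KO 1 and 3. The sum was thus higher in each JNK_KO line as well, while the share of Ifi204 in it was 54.3% and 45.3% in JNK_WT and 27.7% and 39.7% in JNK_KO. That sum leaves out Ifi202b, another HIN-200 gene, which did not follow the 4 genes summed. Ifi202b was at 0.133 and 4.30 FPKM in JNK_WT 1 and 2 and at 0.0386 and 0.404 FPKM in JNK_KO 1 and 3, with overlapping groups.

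Zbp1 (chr2:173206612-173218923, minus strand), which binds Z-form nucleic acid and can start necroptosis through RIPK3, was at 6.53 and 6.33 FPKM in JNK_WT 1 and 2 and at 34.1 and 28.8 FPKM in JNK_KO 1 and 3. The JNK_WT lines were within 1.03-fold of each other, and the lower JNK_KO line was 4.41 times the higher of them. Means were 6.43 ± 0.140 and 31.5 ± 3.78 FPKM (SD, n = 2 each), a ratio of 4.89, and the log2 difference was 2.12 (SE 0.27, 95% interval 1.42 to 2.83) with a limma adjusted p of 0.183, the smallest among the members. Leaving out any single line kept the difference between 2.00 and 2.24. Mb21d1 (chr9:78430526-78443237, minus strand), which encodes cGAS, was at 2.11 and 1.51 FPKM in JNK_WT 1 and 2 and at 3.92 and 3.34 FPKM in JNK_KO 1 and 3. It was the least expressed member in every line, between the 10.5 and 21.2 percentiles of tested genes, and the groups did not overlap. The ratio of means was 2.00 and the log2 difference 0.73 (SE 0.32, 95% interval -0.12 to 1.57), with a limma adjusted p of 0.722; at this level the added 1 FPKM shrinks the difference. Gm8093, an opposite-strand gene that shares exon bases with Mb21d1, was at 0.346 FPKM in JNK_KO 1 and listed at 0 in the other lines.

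The adaptors and the kinase were expressed in every line, with log2 differences between 0.19 and 0.33 and 95% intervals that include 0. With 2 lines a group this does not show equal levels. The intervals of Mavs and Tmem173 reach 1.10 and 1.44 and do not exclude a 2-fold rise. Mavs (chr2:131234063-131248025, plus strand) had 18.5 and 11.1 FPKM in JNK_WT 1 and 2 and at 17.1 and 16.0 FPKM in JNK_KO 1 and 3. Both JNK_KO values lay between the JNK_WT values. The log2 difference was 0.19 (95% interval -0.72 to 1.10, limma adjusted p = 0.999). Tmem173 on chromosome 18, which encodes STING, was at 17.0 and 35.9 FPKM in JNK_WT 1 and 2 and at 32.8 and 29.9 FPKM in JNK_KO 1 and 3. The JNK_KO values again lay between those of the JNK_WT lines, which were 2.12-fold apart, and the log2 difference was 0.33 (95% interval -0.79 to 1.44, limma adjusted p = 0.991). Tbk1 (chr10:121546455-121586787, minus strand) was at 14.2 and 16.6 FPKM in JNK_WT 1 and 2 and at 16.6 and 19.3 FPKM in JNK_KO 1 and 3. Its groups were ordered but met, with 16.62 FPKM in the higher JNK_WT line and 16.63 FPKM in the lower JNK_KO line, and the log2 difference was 0.21 (95% interval -0.50 to 0.92, limma adjusted p = 0.991). The sign for Mavs turned without JNK_WT 2 and that for Tmem173 without JNK_WT 1.

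Sensor and adaptor levels were also set against each other within each line, for the pairs RIG-I with MAVS and cGAS with STING. The ratio of Ddx58 to Mavs FPKM was 0.727 and 1.52 in JNK_WT 1 and 2 and 2.81 and 2.76 in JNK_KO 1 and 3. This ratio was higher in both JNK_KO lines than in either JNK_WT line. The ratio of Tmem173 to Mb21d1 was 8.04 and 23.8 in JNK_WT and 8.36 and 8.96 in JNK_KO, and did not separate them.

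The order of the genes by mean FPKM differed between genotypes, as a description with 2 lines each. In JNK_WT cells the order was Tmem173, Tlr3, Tbk1, Ddx58, Mavs, Zbp1, Ifih1, Dhx58, Ifi204 and Mb21d1, from 26.4 down to 1.81 FPKM. The ranges of neighbours were separate between Tlr3 and Tbk1, between Mavs and Zbp1, and between Ifi204 and Mb21d1, and all other neighbours overlapped. In JNK_KO cells it was Ddx58, Zbp1, Tmem173, Tlr3, Ifi204, Tbk1, Mavs, Ifih1, Dhx58 and Mb21d1, from 46.2 down to 3.63 FPKM. There the ranges were separate between Ddx58 and Zbp1 and between Dhx58 and Mb21d1 alone. Ddx58 thus stood between Tbk1 and Mavs in JNK_WT, separate from neither, and ahead of all others in JNK_KO.

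Other genes of the pathway were examined as lists by role, and no gene of any list was called by limma over all genes tested. Over all tested genes, both JNK_KO lines lay above both JNK_WT lines for 18.3% and below for 16.7%, and an unadjusted p under 0.05 was found for 4.75% on the higher side and 2.89% on the lower side. Genes under 1 FPKM in both JNK_WT libraries passed the filter only through their JNK_KO values and had to be higher there. Over the genes at 1 FPKM or more in a JNK_WT library, the share above was 16.4%. The share of these genes with an unadjusted p under 0.05 and higher was 3.12%. Genes with only 1 JNK_WT library at 1 FPKM or more also needed a JNK_KO value to pass, so these shares are not free of the filter. Of 25 other nucleic acid sensors 17 passed the filter, 4 of them (Oas1b, Oas1g, Oas2 and Ddx60) only through their JNK_KO values. Among the other 13, the JNK_KO lines lay above for 9, below for 1 (Ddx41) and overlapped for 3. An unadjusted p under 0.05 was found for 8 that were higher and 0 that were lower. Of the 13, Aim2, Ifi203, Ifi205, Mndal, Oas1a, Oas3 and Ifit1 had only 1 JNK_WT library at 1 FPKM or more. They too passed the filter with the help of a JNK_KO value. The 8 that did not pass the filter were low in most or all lines, under 5 FPKM throughout. The genes with the largest log2 differences were Ifit1 (3.51), which binds uncapped RNA, Oasl2 (3.46), of the oligoadenylate synthetase family, and Ifi203 (3.17). Oasl2 was at 13.4 and 1.94 FPKM in JNK_WT 1 and 2 and at 82.5 and 59.8 FPKM in JNK_KO 1 and 3 (limma adjusted p = 0.413). Not every sensor followed: Aim2, the inflammasome sensor of DNA, was at 13.2 and 0.325 FPKM in JNK_WT 1 and 2 and at 1.58 and 4.45 FPKM in JNK_KO 1 and 3, so that its lines overlapped. The endosomal receptors Tlr7 and Tlr9, typical of immune cells, were at or under 0.0354 FPKM in all lines and were not tested.

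All 24 genes that relay the signal passed the filter, Ripk3 only through its JNK_KO values. Among the other 23, the JNK_KO lines lay above for 7, below for 5 and overlapped for 11. An unadjusted p under 0.05 was found for 2 higher genes and 1 lower gene. Beside these stand 16.4% above and 3.12% higher over genes at 1 FPKM or more in a JNK_WT library. Over all tested genes 16.7% lay below and 2.89% were lower with such a p. Irf7, the interferon-inducible factor that amplifies the response, stood apart from the rest of the list. It was at 6.99 and 2.29 FPKM in JNK_WT 1 and 2 and at 107.5 and 72.9 FPKM in JNK_KO 1 and 3, a log2 difference of 4.13 (SE 0.52, limma adjusted p = 0.187). The next in size were Ripk3 (1.67), the necroptosis kinase, and Myd88 (1.13), the adaptor of most Toll-like receptors. Irf3, the direct substrate of TBK1, was at 23.9 and 22.5 FPKM in JNK_WT and at 16.7 and 22.2 FPKM in JNK_KO (log2 difference -0.25, limma adjusted p = 0.979). Ikbke, the kinase related to Tbk1, and Ticam1, the adaptor of Tlr3, had log2 differences of 0.17 and 0.05, and the lines overlapped for both.

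The 12 nucleases and editors that remove or mark self nucleic acid were mixed, with 4 above (beside 18.3% of all tested genes), 1 below (beside 16.7%) and 7 overlapping, and 2 higher genes had an unadjusted p under 0.05 (beside 4.75%). Samhd1, which depletes nucleotides and restricts retroviruses, was at 46.7 and 34.0 FPKM in JNK_WT 1 and 2 and at 109.4 and 110.4 FPKM in JNK_KO 1 and 3 (log2 difference 1.44, limma adjusted p = 0.279). Trex1, the cytosolic exonuclease that clears DNA before cGAS can bind it, was at 6.61 and 4.31 FPKM in JNK_WT and at 17.2 and 10.8 FPKM in JNK_KO (log2 difference 1.20, limma adjusted p = 0.552). Adar, which edits duplex RNA, had a log2 difference of 0.97. For these 3 genes the lines did not overlap.

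Of 14 inhibitors of sensor signalling 13 passed the filter, Trim30a only through its JNK_KO values. Among the other 12, the JNK_KO lines lay above for 2 (beside 16.4% of genes at 1 FPKM or more in a JNK_WT library). They lay below for 4 (beside 16.7% of all tested genes) and overlapped for 6. The share above was near its background. The share below was larger than its background, but it rests on 4 genes and was not tested. That background also includes genes under 1 FPKM in both JNK_WT libraries, which could not lie below. An unadjusted p under 0.05 was found for 0 higher (beside 3.12%) and 1 lower gene (beside 2.89%). Rnf125 and Usp18 had only 1 JNK_WT library at 1 FPKM or more and passed with a JNK_KO value. The largest differences were those of Trim30a (2.98), Usp18 (2.57) and Tax1bp1 (-0.98). Trim30a was at 0.164 and 0.0348 FPKM in JNK_WT 1 and 2 and at 10.4 and 5.62 FPKM in JNK_KO 1 and 3 (limma adjusted p = 0.191). Usp18, which removes ISG15 from proteins and dampens the interferon receptor, was at 13.5 and 0.386 FPKM in JNK_WT and at 28.3 and 23.1 FPKM in JNK_KO. As for Ifih1 and Dhx58, its lowest value was in JNK_WT 2.

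The interferon genes in the list, Ifnb1, Ifnl2 and Ifnl3, were barely measured, and no other interferon gene was examined. Ifnb1 was at 0 and 0.0516 FPKM in JNK_WT 1 and 2 and at 0.260 and 0.0921 FPKM in JNK_KO 1 and 3, under the filter, and Ifnl2 and Ifnl3 were listed at 0 in all lines. Of the 12 interferons and early target genes 9 passed the filter, Ifit3 and Mx1 only through their JNK_KO values. For the other 7 the JNK_KO lines lay above in each case (beside 16.4% of genes at 1 FPKM or more in a JNK_WT library). Higher with an unadjusted p under 0.05 were 6 of them (beside 3.12% of such genes). Of the 7, Ifit1, Ifi44 and Rsad2 had only 1 JNK_WT library at 1 FPKM or more and passed with a JNK_KO value. Ifit1 is also in the list of other sensors. Cxcl10, a chemokine gene switched on directly by the pathway, was at 6.14 and 1.26 FPKM in JNK_WT 1 and 2 and at 200.5 and 38.3 FPKM in JNK_KO 1 and 3. Its lines did not overlap, although the JNK_KO lines were far apart (log2 difference 4.47, SE 0.99, limma adjusted p = 0.378). Ccl5 was at 17.0 and 14.3 FPKM in JNK_WT and at 77.7 and 34.4 FPKM in JNK_KO (log2 difference 1.67, limma adjusted p = 0.471), and Ifi44 had a log2 difference of 3.65.

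**Figure D4:**
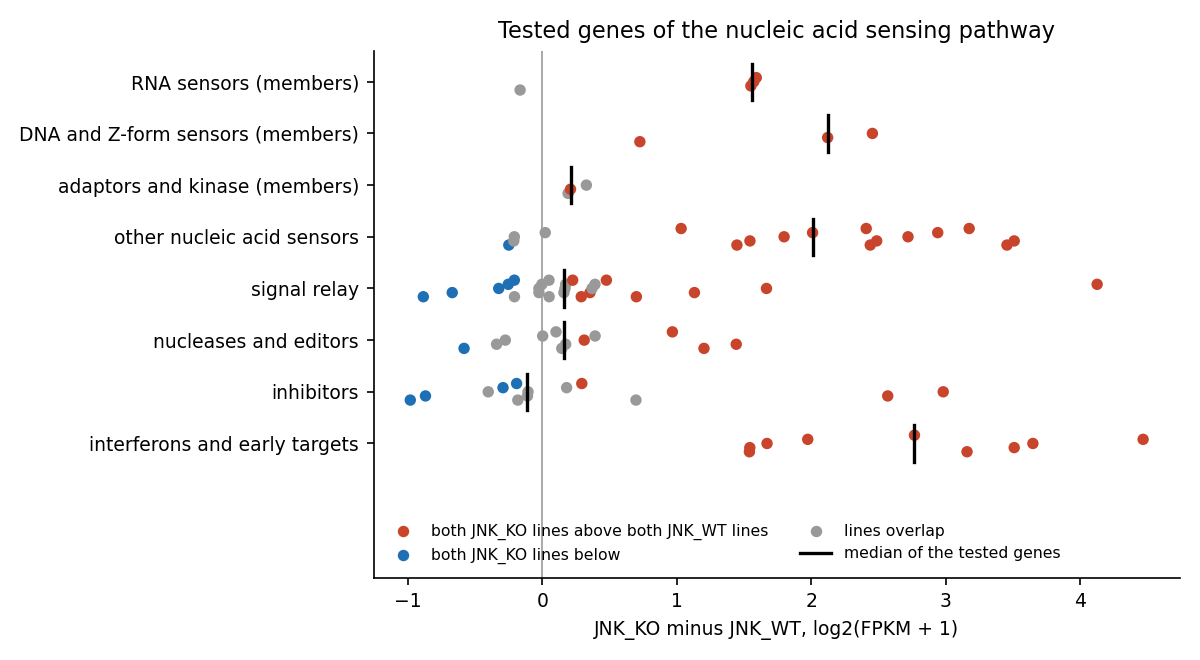
Log2 difference of each tested gene, JNK_KO minus JNK_WT on log2(FPKM + 1), by list, coloured red where both JNK_KO lines lay above both JNK_WT lines, blue where both lay below and grey where they overlapped, with a black bar at the median of the tested genes. The medians of the adaptors and kinase, the signal relay, the nucleases and the inhibitors lie between -0.11 and 0.21, and those of the sensor lists and the early targets between 1.56 and 2.77, genes that passed the filter only through their JNK_KO values included.

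These list medians depended on the settings. The median of the other sensors was 2.01, against 1.03 with no filter on low values, 3.43 with a pseudocount of 0.1 and 2.44 without the genes that passed only through JNK_KO. That of the early targets was 2.77, against 2.37 with no filter and 3.16 without such genes. That of the RNA sensors among the members was 1.56, and 0.79 without JNK_WT 2.

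The genes whose pattern over the 4 libraries was closest to that of Ddx58 were found by the root mean square distance between log2(FPKM + 1) values, each gene centred on its own mean. They were Cfb at a distance of 0.0511, 4930519F16Rik at 0.0549, Loxl4 at 0.0816, S100a8 at 0.0895 and H2-M2 at 0.0992. Their ratios of means were, in that order, 4.10, 7.19, 2.93, 3.255 and 39.75, against 3.04 for Ddx58. The added 1 FPKM shrinks differences of low genes, so closeness on this scale is not likeness in fold. 4930519F16Rik and H2-M2 were under 1 FPKM in both JNK_WT lines and passed the filter only through their JNK_KO values. Among the members the closest was Zbp1 at 0.314 and the farthest Tlr3 at 0.967. With 4 points many genes can lie this close, so the distances describe these libraries alone.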

How the data were processed

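RNA sequencing of 4 mouse mammary tumor cell lines was used, with groups and replicate numbers taken from the sample titles. The authors trimmed single-end reads, sampled them to a similar number per library, aligned them to mm10 (GRCm38) with TopHat2 2.0.14 and Bowtie2, and estimated expression with Cufflinks 2.2.1; the versions are those of the submitters' processing notes. The deposited values were FPKM, with a value for each gene in each library and no pooling of replicates. The annotation they used is not given in the sources used here, and Cufflinks shares reads between overlapping genes and paralogs by an estimate. Of 38741 entries, 27 with calendar dates as symbols and 1 with no value were left out. Positions came from GENCODE M21 (GRCm38) by symbol, where Mb21d1 is listed as Cgas.

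Genes that reached an FPKM of 1 in 2 or more libraries were tested on log2(FPKM + 1), which understates differences of low genes, with limma 3.58.1 (intensity trend, two-sided, R 4.3.3) and Benjamini-Hochberg adjustment over all 12998 genes. Calls needed an adjusted p under 0.05 and an absolute log2 difference over 0.75. Cuffdiff, which the study used, needs the alignments and was not run. The fit was tested on simulated data. A permutation test of 2 lines against 2 cannot give a p below 0.333. The depth is known only relative to other libraries, so no counting intervals were computed, and 2 lines a group limit the precision. Python 3.11.15, pandas 2.3.3 and matplotlib 3.10.9 were used.

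The members and gene lists were chosen with earlier results of these data known. The genes named were the members, the targeted genes and, in each list, the 3 tested genes of largest log2 difference in either direction. Also named were 11 further pathway genes and the 5 genes closest in profile to Ddx58. Ddx41, Ddx60, Ifi202b, Ifi205, Mndal, Oas1a, Oas1b, Oas1g, Oas2, Oas3, Rnf125, Rsad2, Ifit3, Mx1, Ifnl2 and Ifnl3 are named for single counts or values. So are marker genes, genes of the promoter search and genes that overlap a member. Other pseudocounts, filters, scalings, variance models, thresholds and fits without each line were run as alternatives.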

Additional observations from a re-analysis of the deposited data

How the results depend on the processing

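The number of members called was 0 under every alternative run. Over all genes 0 were called, against 10 and 14 with pseudocounts of 0.1 and 0.5, 14 with no intensity trend and 25 at an adjusted p under 0.1. The median log2 difference of the members, 1.14, was 1.55 with a filter on a mean of 5 FPKM, which removes Mb21d1, and 0.76 to 1.22 when single lines were left out, lowest without JNK_WT replicate 2; the cause was not tested. With single lines left out, log2 differences spanned -0.19 to 0.85 for Tmem173, -0.15 to 0.54 for Mavs and -0.72 to 0.39 for Tlr3, and the sign turned in 1 of 4 such fits for Tmem173 (-0.19 without JNK_WT replicate 1), 1 for Mavs (-0.15 without JNK_WT replicate 2) and 2 for Tlr3 (0.12 without JNK_WT replicate 2 and 0.39 without JNK_KO replicate 1). Where 1 line was left in a group, it was assumed to vary like the other group. The other 7 members kept their sign under the settings run. Both JNK_KO lines lay above both JNK_WT lines for each of these 7. Leaving out a line therefore could not turn their sign. The number of members with JNK_KO lines above JNK_WT lines, 7, was 6 with the mean filter, which removes Mb21d1, and 7 or 8 without single lines. Leaving out a line can only keep or raise this count, so these fits do not measure its stability. No paired analysis was made. The replicate number 1 occurs in both groups but does not pair the lines, which came from mice of different genotypes.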

Other observations

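Some pathway genes, chosen here after their values were seen, differed more between lines of the same genotype than between genotypes. Enpp1, the extracellular enzyme that hydrolyses cGAMP, was at 15.7 FPKM in JNK_WT 1 and 102.7 FPKM in JNK_WT 2, and at 32.1 and 31.6 FPKM in JNK_KO 1 and 3. Tnfaip3, which encodes the ubiquitin-editing inhibitor A20, was at 54.8 and 7.87 FPKM in JNK_WT 1 and 2 and at 25.2 and 13.6 FPKM in JNK_KO 1 and 3. Rnf125, a ubiquitin ligase for RIG-I, was at 0.554 and 8.20 FPKM in JNK_WT 1 and 2 and at 3.63 and 7.12 FPKM in JNK_KO 1 and 3. Ifi202b, a HIN-200 gene, was at 0.133 and 4.30 FPKM in JNK_WT 1 and 2 and at 0.0386 and 0.404 FPKM in JNK_KO 1 and 3.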
